A study of Homo sapiens with 24 samples.

Results

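The genes described here are nuclear genes for subunits and close partners of respiratory complexes II, III, IV and V, measured in LNCaP cells, an androgen-responsive human prostate cancer line. They were chosen by name: every gene on the array whose probe set had 1 symbol starting with COX4, COX5, COX6, COX7, COX8, UQCR or ATP5, plus CYC1, SDHA, SDHB, SDHC and SDHD. The rule found 40 of the 11963 genes with a symbol, and 38 of these were among the 6782 genes bright enough to be tested. SDHB is not analysed here. The 38 tested members comprised 3 genes of complex II, 7 of complex III, 11 of complex IV and 17 of complex V. COX6A2 and COX7A1, the forms of complex IV subunits known from heart and skeletal muscle, lay at the floor of the scale on all 24 arrays. ATP5MC2P1, which the name rule also takes, is a pseudogene of ATP5MC2, so its signal, with a mean of 2.94 near the floor, is uncertain and may come from the parent transcript.

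Complex II, succinate dehydrogenase, links the citric acid cycle to the electron transport chain, and complexes III (cytochrome bc1) and IV (cytochrome c oxidase) pass the electrons on to oxygen while pumping protons. Complex V, ATP synthase, lets the protons flow back and makes ATP. Apart from a few subunits encoded in mitochondrial DNA, the proteins are made from nuclear genes, many of them giving short and abundant messenger RNAs. MicroRNAs are small RNAs held by Argonaute proteins such as AGO2. Bases 2 to 8 of the microRNA, the seed, pair with matching sites in target transcripts, which are then degraded or translated less.

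Plasmid DNA (2.5 µg) encoding miR-130a, miR-203 or miR-205, or a scramble control, was brought into the cells by nucleofection, which is a form of electroporation. From each transfection, RNA that co-precipitated with AGO2 (AGO2-bound RNA) and total RNA were each hybridised as 3 biological replicates, giving 8 groups and 24 Affymetrix arrays with 2 µg of RNA each. All groups were the same untreated line apart from the plasmid, and the level of the microRNAs themselves is not analysed here. Because the samples are bulk RNA, fewer cells with a transcript and less of it per cell cannot be told apart. The labels do not say whether the replicates were separate cultures, so p-values describe the variation among the arrays measured.

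The seeds show what distinguishes the transfected microRNAs whose mature sequence was at hand (RefSeq, GRCh38.p14). Capitals mark the seed. miR-203a-3p comes from chr14:104117469-104117490 and miR-205-5p from chr1:209432166-209432187, both on the plus strand, and their seeds differ. The mature miR-130a is named only.
hsa-miR-203a-3p: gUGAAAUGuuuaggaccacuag
hsa-miR-205-5p: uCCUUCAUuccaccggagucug

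Several measures of the arrays differed between the kinds of RNA. The 3′ minus 5′ difference of the ACTB control probe sets, a measure of RNA or labelling quality, was 2.22 to 3.94 (log2) on the 12 AGO2-bound arrays and 2.00 to 2.44 on the 12 total RNA arrays. The mean of the spiked control probe sets was 6.29 to 7.95 on AGO2-bound arrays, against 5.77 to 6.11 on total RNA arrays. Within AGO2-bound RNA the ACTB difference was 2.22 to 2.78 for miR-130a and 2.30 to 2.93 for miR-203, against 2.93 to 3.84 for scramble, so the arrays of both microRNAs lay below those of scramble, by little for miR-203. The miR-205 arrays, with up to 3.94, overlapped those of scramble. The same difference for GAPDH was 0.60 to 0.89 for AGO2-bound miR-203, also below the 1.23 to 1.57 for scramble. The part of these measures in the AGO2-bound against total RNA comparisons, and in those of AGO2-bound RNA against scramble, was not tested. The lowest value on an array was 2.344895 for the 6 miR-130a arrays, 2.346843 for the 6 miR-203 arrays and 2.347327 for the 12 arrays of miR-205 and scramble. These 3 sets may be separate normalization runs, which the labels do not state. Set and transfection cannot be told apart where miR-130a or miR-203 is set against scramble, whereas AGO2-bound against total RNA, and miR-205 against scramble, stay within 1 set. Of 10 luminal prostate markers, 7 were on the array under 1 symbol and all 7 passed the filter. FOLH1 among them was low, between 2.35 and 4.75. None of the basal, blood or endothelial markers passed the filter, with no value above 2.68, and of 5 stromal markers COL1A1 alone did.

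In all 4 transfections most complex II to V transcripts were lower in AGO2-bound than in total RNA. The median log2 level of the tested members lay between 8.99 and 9.65 on the AGO2-bound arrays and between 10.2 and 10.4 on the total RNA arrays, and these ranges do not overlap. The median over all genes tested was 5.74 to 5.81 on AGO2-bound arrays and 5.59 to 5.74 on total RNA arrays. A call below means a Benjamini-Hochberg adjusted p under 0.05 in limma, adjusted over all 6782 genes. After miR-130a, 25 of 38 members were lower in AGO2-bound RNA and 10 higher, where 38.3% of all genes were called lower, 33.3% higher and 71.6% in either direction. After miR-203, 27 were lower and 8 higher (all genes 37.2%, 34.7% and 71.9%). The miR-205 cells had 23 lower and 13 higher (36.1%, 36.6% and 72.7%), and the scramble cells 28 lower and 8 higher (37.8%, 35.1% and 72.9%). With quantile normalization the scramble counts were 29 lower and 5 higher. The members' median difference was -0.81, -0.78, -0.85 and -1.04 for miR-130a, miR-203, miR-205 and scramble, beside -0.08, -0.03, -0.01 and -0.05 over all genes tested.

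Falls of at least 2-fold in AGO2-bound RNA were called for 16 members after miR-130a, 17 after miR-203, 16 after miR-205 and 21 after scramble. Among all genes the same call was made for 17.7%, 17.4%, 17.4% and 18.3%. Rises of at least 2-fold were called for 6, 5, 6 and 3 members, beside 19.2%, 19.8%, 21.5% and 20.9% of all genes. Because most members are bright, they were also set beside the 1899 tested genes with a mean log2 level of at least 7, a bound chosen after values had been seen. Of those, 45.4%, 46.6%, 44% and 45.3% were called lower in AGO2-bound RNA, also below the members' 65.8%, 71.1%, 60.5% and 73.7%. No test of the members as a set was made.

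**Figure D1:**
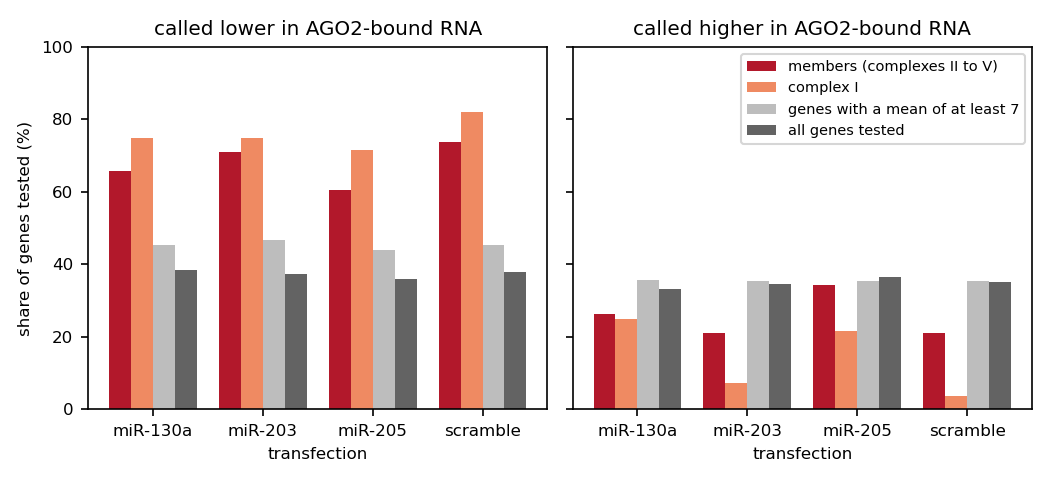
Shares of genes called lower (left) and higher (right) in AGO2-bound than in total RNA, in percent of the genes tested, for each transfection; bars stand for the 38 tested members of complexes II to V, the 28 tested complex I genes, the tested genes with a mean log2 level of at least 7, and all 6782 genes tested. The members were called lower in 60.5% to 73.7% of cases, above the brighter genes and all genes tested in each transfection. The complex I genes were called lower more often than the members each time, in 71.4% to 82.1%.

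The 28 tested genes of complex I, NADH dehydrogenase, gave similar counts. Of these 21, 21, 20 and 23 were lower in AGO2-bound RNA after miR-130a, miR-203, miR-205 and scramble, and 7, 2, 6 and 1 higher, with medians between -0.99 and -1.34. NDUFB6 was lower after miR-130a (-1.81, SE 0.11) and after miR-205 (-1.91, SE 0.11), while NDUFB2 was higher after miR-130a (1.53, SE 0.12) and NDUFV1 after miR-203 (2.94, SE 0.20). Assembly factors of complexes II to V had 16, 14, 13 and 17 of 22 lower and 5, 7, 5 and 3 higher. OXA1L, which inserts proteins into the inner mitochondrial membrane, was higher in AGO2-bound RNA each time, by 2.91, 2.48, 2.79 and 3.42 (SE 0.14 each). SURF1, needed to build complex IV, was lower after miR-130a (-1.91, SE 0.13) and miR-205 (-1.84, SE 0.13). Electron carriers and their partners had 4, 4, 5 and 7 of 11 lower and 4, 3, 2 and 2 higher; ETFA, a subunit of the electron transfer flavoprotein, was lower after each transfection (-1.38, -1.82, -1.82 and -1.42, SE 0.12 each). Regulators of respiratory genes had 1, 1, 3 and 3 of 11 lower and 6, 5, 5 and 6 higher. Their medians were 0.62, -0.12, 0.18 and 0.54, so the direction was not the same throughout. Called higher were 54.5%, 45.5%, 45.5% and 54.5% of them, beside 33.3%, 34.7%, 36.6% and 35.1% of all genes. YY1, a transcription factor, was higher after miR-130a (1.31, SE 0.14) and miR-205 (2.58, SE 0.14), and GABPB1, a partner of the ETS factor GABPA, after scramble (3.96, SE 0.25).

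The 38 members did not form 1 block. Of these, 13 (34.2%) were called lower in AGO2-bound RNA in all 4 transfections, which held for 16.2% of all genes tested and 21.6% of those with a mean of at least 7. The 13 were SDHD of complex II, UQCR11 of complex III, COX6B1, COX6C, COX7C and COX8A of complex IV, and ATP5F1A, ATP5F1B, ATP5F1C, ATP5ME, ATP5PD, ATP5PF and ATP5PO of complex V. Another 4 (10.5%) were higher in all 4, beside 17.1% of all genes and 17.6% of the brighter ones: COX5A, COX7A2L, ATP5MC2 and ATP5MC2P1. Called in opposite directions in different transfections were 15 members, 39.5%, beside 20.5% of all genes and 27.1% of the brighter ones. They were SDHA, SDHC, UQCR10, UQCRC1, UQCRC2, UQCRQ, COX6A1, COX7A2, ATP5F1D, ATP5F1E, ATP5IF1, ATP5MC1, ATP5MC3, ATP5MJ and ATP5PB. The other 6, CYC1, UQCRB, COX4I1, COX5B, COX7B and ATP5MG, were lower in 3 transfections and not called in the remaining one. The 4 comparisons share no arrays. In the alternatives that left out no compared array, 11 to 15 members were lower in all 4, 2 to 4 higher in all 4 and 12 to 15 called in opposite directions. Centring or quantile normalization left COX7A2L and ATP5MC2 higher in all 4, while COX5A after miR-203 (0.16 and 0.08) and ATP5MC2P1 after miR-130a (0.29 and 0.35) lost their calls.

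**Figure D2:**
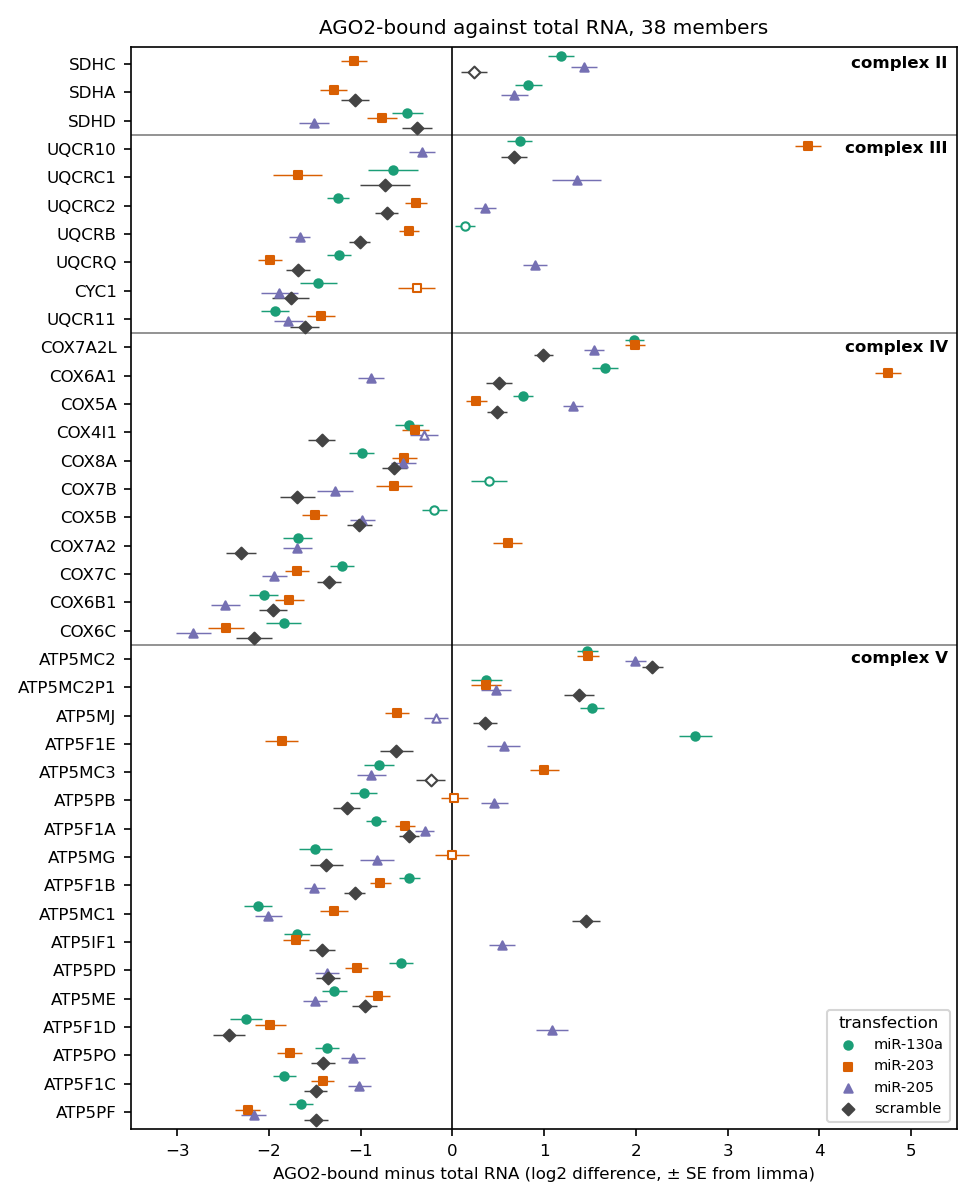
Difference between AGO2-bound and total RNA (x axis, log2, with the standard error from limma) for each of the 38 tested members, grouped by complex; symbols stand for the transfections, filled where the difference was called and open where it was not. COX6B1 and COX6C lie left of 0 in every transfection, ATP5MC2 and COX7A2L right of it, and COX6A1 runs between -0.88 and 4.75.

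Succinate dehydrogenase, complex II, was represented by its flavoprotein SDHA, which oxidises succinate, and by its membrane anchors SDHC and SDHD. SDHA had log2 levels of 8.06, 8.64 and 8.18 in AGO2-bound RNA of miR-130a cells, 6.49, 6.31 and 6.42 in miR-203 cells, 8.20, 8.45 and 7.87 in miR-205 cells, and 6.53, 6.49 and 6.54 in scramble cells. Its total RNA levels stayed between 7.41 and 7.85 on all 12 arrays. AGO2-bound SDHA was thus above total RNA after miR-130a (0.83) and miR-205 (0.68) and below it after miR-203 (-1.29) and scramble (-1.06), with no overlap between AGO2-bound and total arrays. The anchor SDHC gave 10.47 ± 0.24 in AGO2-bound RNA after miR-130a, 8.63 ± 0.18 after miR-203, 10.84 ± 0.24 after miR-205 and 9.71 ± 0.10 after scramble (SD, n = 3 each). It was higher in AGO2-bound than in total RNA after miR-130a (1.19, SE 0.14, adjusted p = 5.9e-08) and miR-205 (1.44, SE 0.14, adjusted p = 2.1e-09) by limma. After miR-203 SDHC was lower (-1.07), and after scramble the difference of 0.24 was not called. The other anchor, SDHD, was lower in AGO2-bound RNA throughout (-0.49, -0.77, -1.51 and -0.38).

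Complex III carries electrons from ubiquinol to cytochrome c. UQCR11, a small subunit, had 7.97, 7.73 and 8.19 in AGO2-bound RNA after miR-130a, against 9.88, 9.95 and 9.85 in total RNA, and was lower in all 4 transfections (-1.93, -1.43, -1.79 and -1.61). CYC1, cytochrome c1 itself, was lower after miR-130a (-1.46), miR-205 (-1.88) and scramble (-1.76), and its difference of -0.39 after miR-203 was not called. The small subunit UQCR10 went against these: it was higher in AGO2-bound RNA after miR-130a (0.73), miR-203 (3.88) and scramble (0.67) and lower after miR-205 (-0.34), a call that ended with no filter on low values (limma adjusted p = 0.054) or with the compared groups alone (0.11). UQCRQ, UQCRC1 and UQCRC2, a small subunit and the 2 core proteins, were lower after miR-130a, miR-203 and scramble and higher after miR-205 (0.90, 1.36 and 0.35). The UQCRC2 value after miR-205 rests on 1 of 2 probe sets that disagree: the other, with a mean level of 8.80, gave -0.07, and the mean of both gave 0.14 (limma adjusted p = 0.28). The call also ended with quantile normalization (0.25), with centring (0.18) and with the compared groups alone (adjusted p = 0.059).

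Cytochrome c oxidase, complex IV, held the largest differences in both directions. COX6C, a small structural subunit, had 7.63, 8.02 and 7.70 in AGO2-bound RNA after miR-205, against 10.62, 10.64 and 10.56 in total RNA. This was the largest fall of any member in the 4 comparisons (-2.82, SE 0.19, 7.07-fold, limma adjusted p = 3.3e-12), and COX6C was also lower after miR-130a, miR-203 and scramble (-1.84, -2.47 and -2.16). COX6B1, which sits where the monomers of the enzyme meet, was lower each time (-2.06, -1.78, -2.47 and -1.96). COX7A2L, known for joining complexes III and IV into supercomplexes, ran the other way with 9.42, 9.32 and 9.31 in AGO2-bound RNA after miR-130a, against 7.30, 7.36 and 7.44 in total RNA. It was higher by 1.98, 1.99, 1.54 and 0.99 in miR-130a, miR-203, miR-205 and scramble cells. COX5A, a matrix-side subunit, was higher by 0.77, 0.26, 1.32 and 0.49.

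ATP synthase, complex V, has a catalytic F1 head, a rotating ring of c subunits in the membrane and a stalk that holds the head still. In the head, the α, β and γ subunits ATP5F1A, ATP5F1B and ATP5F1C were lower in AGO2-bound RNA each time, between -0.30 and -1.83. The other 2 head subunits varied. ATP5F1D, the δ subunit, was lower after miR-130a (-2.25), miR-203 (-1.98) and scramble (-2.43) and higher after miR-205 (1.09). ATP5F1E, the ε subunit, was higher after miR-130a (2.65) and miR-205 (0.56) and lower after miR-203 (-1.86) and scramble (-0.61). The stalk subunits ATP5PD, ATP5PF and ATP5PO were also lower each time; for ATP5PF the differences were -1.65, -2.23, -2.16 and -1.49. ATP5PB, the b subunit of the stalk, was lower after miR-130a (-0.97) and scramble (-1.15), not called after miR-203 (0.02) and higher after miR-205 (0.46). That last call ended with quantile normalization (0.30, limma adjusted p = 0.060) or centring (0.28, adjusted p = 0.089). ATP5PF had 8.33, 8.16 and 8.45 in AGO2-bound RNA after miR-203, against 10.39, 10.61 and 10.63 in total RNA. ATP5MC1, ATP5MC2 and ATP5MC3 encode the same mature c subunit, and their transcripts differed in direction. ATP5MC2 was higher in AGO2-bound RNA in all 4 transfections (1.47, 1.48, 1.99 and 2.18). ATP5MC3 was higher after miR-203 (1.00), lower after miR-130a (-0.80) and miR-205 (-0.88), and not called after scramble (-0.24). ATP5MC1 was lower after the 3 microRNAs (-2.12, -1.29 and -2.00) and higher after scramble (1.46).

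The spread of the 4 transfections was wider in AGO2-bound than in total RNA for every tested member. The range of the 4 group means had a median of 1.25 (log2) in AGO2-bound RNA and 0.28 in total RNA, and it was larger in AGO2-bound RNA for 38 of 38. Over all genes tested the medians were 0.97 and 0.49, with a larger AGO2-bound range for 5266 of 6782; for the genes with a mean of at least 7 they were 1.09 and 0.43, with 1626 of 1899. The SD between replicates was also larger in AGO2-bound RNA, with a median over members and groups of 0.20 against 0.058 in total RNA.

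COX6A1 encodes the widely expressed form of subunit VIa of cytochrome c oxidase. In AGO2-bound RNA its log2 levels were 12.36, 12.68 and 12.48 in miR-130a cells, 13.51, 13.54 and 13.39 in miR-203 cells, 10.32, 10.37 and 10.14 in miR-205 cells, and 11.61, 11.66 and 11.62 in scramble cells. In total RNA they were 10.87, 10.85 and 10.80 in miR-130a cells, 8.34, 9.15 and 8.69 in miR-203 cells, 11.21, 11.19 and 11.09 in miR-205 cells, and 11.09, 11.11 and 11.18 in scramble cells. No AGO2-bound group overlapped another. The highest AGO2-bound group and the lowest total RNA group were both those of miR-203.

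Relative to total RNA, AGO2-bound COX6A1 was 26.9-fold higher after miR-203 (4.75, SE 0.14, limma adjusted p = 1.9e-18), the ninth-highest difference of all genes tested. It was also higher after miR-130a (1.67, SE 0.14) and lower after miR-205 (-0.88, SE 0.14). After scramble it was 0.51 higher, a call that ended when the arrays were quantile normalized (0.29, adjusted p = 0.061 by limma). Set against scramble, AGO2-bound COX6A1 was higher after miR-130a (0.88, SE 0.13) and miR-203 (1.85, SE 0.13) and lower after miR-205 (-1.35, SE 0.13). Total COX6A1 was 5.27-fold lower after miR-203 (-2.40, SE 0.15, limma adjusted p = 3.2e-07), the lowest value among the 6782 genes. The changes of total COX6A1 after miR-130a (-0.28, limma adjusted p = 0.18) and miR-205 (0.04, adjusted p = 0.90) were not called; the first was called when the fit held miR-130a and scramble arrays alone (adjusted p = 0.028). One probe set measured COX6A1, so no second probe set checks these values.

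UQCR10 and COX7A2 were the other members higher in AGO2-bound and lower in total RNA after miR-203. UQCR10 had 13.01, 13.11 and 12.81 in AGO2-bound RNA after miR-203, against 11.04, 10.94 and 10.68 after scramble (2.09, SE 0.17, limma adjusted p = 3.4e-07). In total RNA it had 9.10, 9.21 and 8.98 after miR-203, against 10.35, 10.03 and 10.26 after scramble (-1.12, SE 0.09, limma adjusted p = 3.6e-06). Neither pair of groups overlapped. COX7A2, the widely expressed form of subunit VIIa, had 10.71, 11.17 and 10.50 in AGO2-bound RNA after miR-203, against 8.22, 8.14 and 8.74 after scramble (2.43, SE 0.20). Its total RNA was 10.19 ± 0.03 after miR-203 and 10.67 ± 0.08 after scramble (SD, n = 3 each), a difference of -0.47 (SE 0.08, limma adjusted p = 0.00062).

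**Figure D3:**
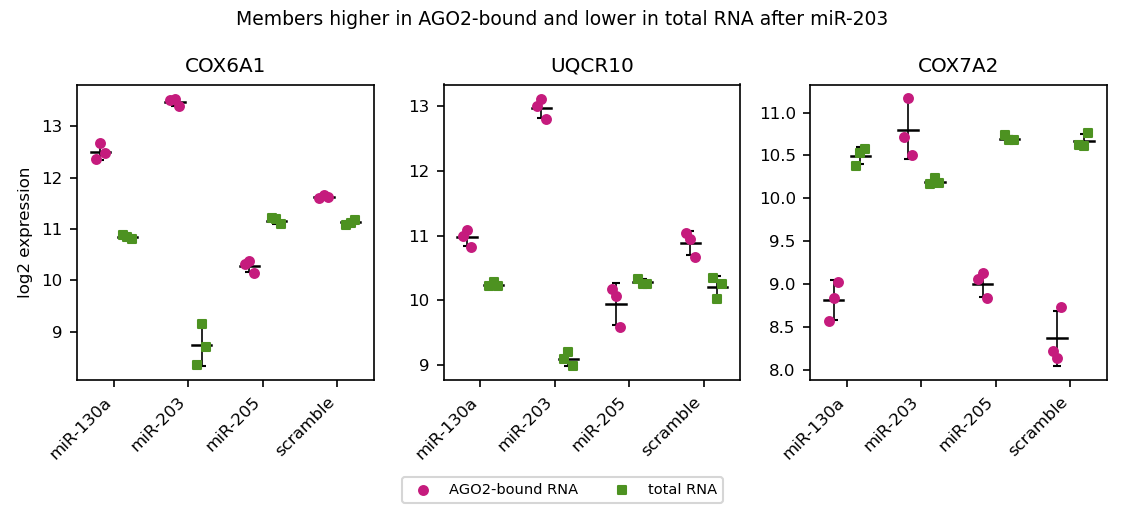
Log2 levels of COX6A1, UQCR10 and COX7A2 on each of the 24 arrays, by transfection; points are arrays, horizontal lines group means and error bars the SD of 3 arrays, with AGO2-bound RNA left of total RNA. After miR-203 the AGO2-bound levels of each gene lie above, and the total RNA levels below, those of the other 3 transfections.

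Such pairs of opposite changes were few. After miR-203, 3 of 38 members (7.89%) were higher in AGO2-bound and lower in total RNA, beside 5.6% of all genes tested. After miR-130a there were 3 (7.89%), COX5B, COX7A2L and COX7B, beside 2.82%, and after miR-205 there were 2 (5.26%), ATP5F1D and UQCRC1, beside 4.17%. The shares after miR-203 and miR-205 lie near the background. That after miR-130a lies above it but rests on 3 members, and no test of the number was made. The number of such members is thus not read as a result about them. COX7B, a small subunit of complex IV, had 10.00, 10.74 and 10.62 in AGO2-bound RNA after miR-130a, against 8.89, 8.66 and 9.11 after scramble (1.57, SE 0.25). Its total RNA was lower (-0.52, SE 0.08, limma adjusted p = 0.00046). COX5B and COX7A2L fell by 0.37 and 0.48 in total RNA after miR-130a. The COX5B and COX7B falls in total RNA lost their call when all 24 arrays shared 1 estimate of the spread (adjusted p = 0.059 and 0.064 by limma).

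**Figure D4:**
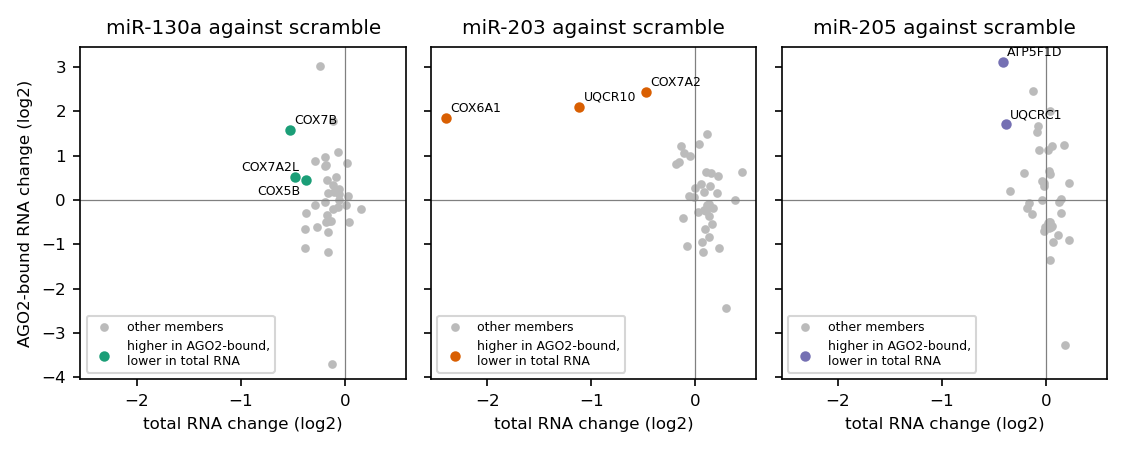
Change after each microRNA against scramble in total RNA (x axis, log2) and in AGO2-bound RNA (y axis, log2) for the 38 tested members; coloured points are members called higher in AGO2-bound and lower in total RNA. COX6A1 lies at -2.40 and 1.85 after miR-203, away from the other members along the x axis.

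After miR-130a the AGO2-bound levels of 12 members were higher and those of 9 lower than after scramble, where 18.6% of all genes were called higher, 19.9% lower and 38.5% in either direction. Among the 1899 genes with a mean of at least 7, 409 were called higher and 442 lower. Without replicate 2 of AGO2-bound miR-130a the 9 lower became 4, and without any other single array they were 6 to 10. The largest rise was that of ATP5F1E, with 13.56, 13.86 and 13.12 after miR-130a, against 10.55, 10.40 and 10.51 after scramble (3.02, SE 0.22, 8.13-fold, limma adjusted p = 1.6e-07). SDHA (1.78, SE 0.17), COX7B, UQCRB of complex III (1.09, SE 0.14) and ATP5MJ, a small membrane subunit of complex V (0.97, SE 0.17), also rose. A second probe set of ATP5MJ gave 0.50, and it disagreed in sign with the one used in AGO2-bound against total RNA after miR-203 (0.15 beside -0.60) and miR-205 (1.03 beside -0.18). The falls were those of ATP5MC1, ATP5MC2 (-1.09, SE 0.15), ATP5MC2P1 (-1.16, SE 0.20), ATP5MC3 (-0.73, SE 0.20), ATP5IF1 (-0.65, SE 0.16) and COX8A (-0.62, SE 0.17), among others. The calls for ATP5MC3 and COX8A ended without replicate 2 of AGO2-bound miR-130a (limma adjusted p = 0.067 and 0.058), and that for ATP5MC3 also without replicate 1 of AGO2-bound scramble (adjusted p = 0.055). In complex I, 10 of 28 genes rose and 4 fell.

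After miR-203, 14 members were higher and 8 lower in AGO2-bound RNA than after scramble, where 22.7% of all genes were called higher, 28.8% lower and 51.4% in either direction. Among the 1899 genes with a mean of at least 7, 455 were called higher and 649 lower. In complex III 5 of 7 genes were higher, a count given without a test. Beside COX7A2, UQCR10 and COX6A1, rises were called for CYC1 (1.48, SE 0.26), ATP5MC3 (1.27, SE 0.20) and ATP5MG, a membrane subunit of complex V (1.23, SE 0.23). SDHC (-1.08, SE 0.16), ATP5F1E (-1.18, SE 0.22), ATP5MC1, ATP5MC2P1 (-0.94, SE 0.20) and ATP5MJ (-0.83, SE 0.17) fell. UQCRC1 was lower (-1.03, SE 0.34, limma adjusted p = 0.021), a call lost without replicate 3 of AGO2-bound miR-203 (adjusted p = 0.084) or without replicate 1 or 2 of AGO2-bound scramble (0.065 and 0.11). In complex I, 10 of 28 genes rose and 7 fell, the largest rise being that of NDUFV1 (4.38, SE 0.25), the subunit that binds NADH.

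After miR-205, 14 members were higher and 11 lower in AGO2-bound RNA than after scramble, where 20.4% of all genes were called higher, 23.7% lower and 44% in either direction. Among the 1899 genes with a mean of at least 7, 449 were called higher and 576 lower. ATP5F1D had 10.29, 10.25 and 9.45 after miR-205, against 7.20, 6.81 and 6.67 after scramble (3.11, SE 0.21, 8.61-fold, limma adjusted p = 5.6e-08). A second, dimmer probe set of ATP5F1D gave 2.57. UQCRQ had 11.33, 11.35 and 11.24, against 8.92, 8.59 and 9.05 (2.45, SE 0.16). ATP5IF1, the inhibitor that keeps ATP synthase from running backwards, had 9.19, 9.72 and 9.38, against 7.42, 7.32 and 7.54 (2.00, SE 0.16). None of these 3 pairs of groups overlapped. UQCRC1 (1.70, SE 0.34), SDHA (1.66, SE 0.17) and ATP5PB (1.53, SE 0.18), also rose. COX6A1, UQCR10 (-0.94, SE 0.17), SDHD (-0.91, SE 0.21), ATP5PF (-0.70, SE 0.15), ATP5MC2P1 (-0.78, SE 0.20) and ATP5MC1 fell. In complex I, 8 of 28 genes rose and 10 fell.

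ATP5MC1 was lower after each microRNA. Its AGO2-bound levels were 5.20, 5.01 and 5.52 in miR-130a cells, 6.45, 6.65 and 6.38 in miR-203 cells, and 5.97, 5.57 and 5.44 in miR-205 cells, against 9.04, 9.12 and 8.66 in scramble cells. The 3 scramble arrays lay above all 9 microRNA arrays. The differences were -3.70, -2.45 and -3.28 (SE 0.18 each), and all 3 comparisons rest on the same scramble arrays. In total RNA ATP5MC1 ranged over 7.28 to 7.88 on the 12 arrays.

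**Figure D5:**
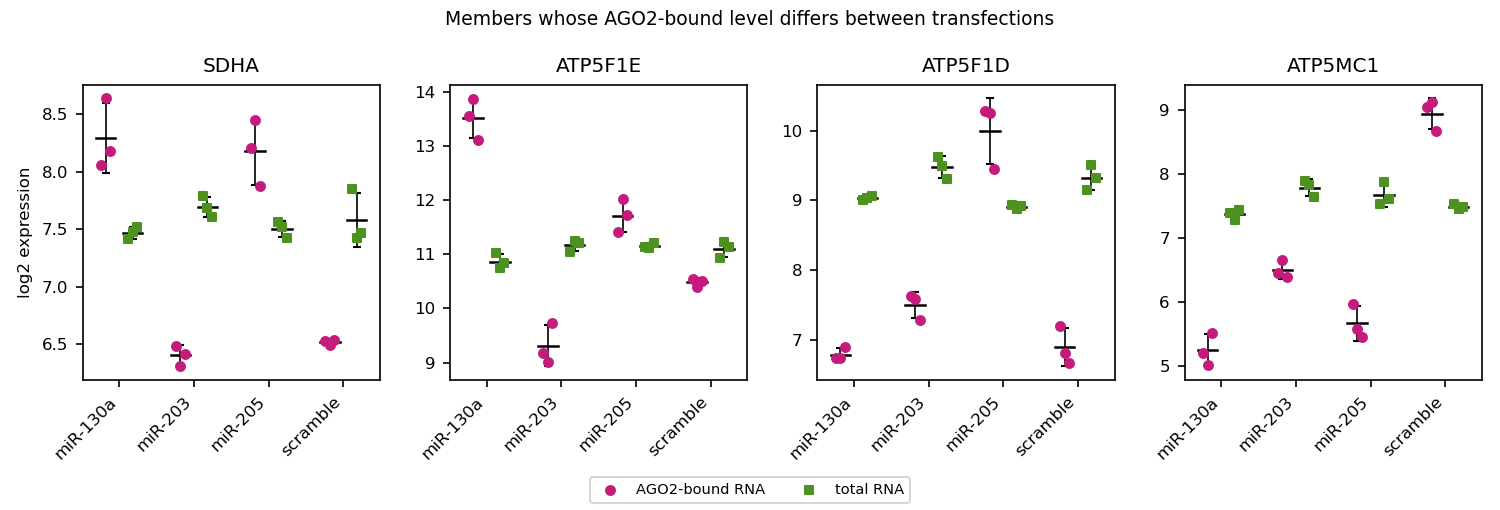
Log2 levels of SDHA, ATP5F1E, ATP5F1D and ATP5MC1 on each of the 24 arrays, by transfection; points are arrays, horizontal lines group means and error bars the SD of 3 arrays, with AGO2-bound RNA left of total RNA. The 4 group means span 0.23 (SDHA) to 0.57 (ATP5F1D) in total RNA and 1.89 (SDHA) to 4.20 (ATP5F1E) in AGO2-bound RNA. AGO2-bound ATP5F1E is highest after miR-130a, ATP5F1D after miR-205 and ATP5MC1 after scramble.

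Total RNA of the members changed little. After miR-130a, 8 of 38 fell and 0 rose against scramble, where 15.9% of all genes were called higher, 13.3% lower and 29.3% in either direction, and the members' median was -0.16 beside 0.01 over all genes. The falls were COX7B, COX7A2L, ATP5MC2 (-0.38), UQCRC1 (-0.38), ATP5IF1 (-0.38), COX5B, ATP5F1D (-0.29) and COX8A (-0.27), each under 1.5-fold. After miR-203, 3 fell, COX6A1, UQCR10 and COX7A2, and 5 rose, where 19.8% of all genes were called higher, 19.8% lower and 39.6% in either direction. The rises were UQCR11 (0.44), SDHD (0.38), ATP5MC1 (0.30), UQCRC2 (0.22) and ATP5F1A (0.21). Except for UQCR11 these calls ended with all 24 arrays in the fit (limma adjusted p = 0.095, 0.15, 0.20 and 0.16 for SDHD, ATP5MC1, UQCRC2 and ATP5F1A). That of UQCRC2 ended too with the mean of its probe sets (0.05, adjusted p = 0.50), the second of which gave -0.11. After miR-205, UQCRC1 (-0.39), ATP5F1D (-0.42) and COX7A2L (-0.35) fell and ATP5F1A (0.22) rose, where 10.1% of all genes were called higher, 13.3% lower and 23.5% in either direction. The shares of members called in either direction, 21.1%, 21.1% and 10.5%, lay below those backgrounds. For falls alone after miR-130a the members' 21.1% lay above the 13.3% of all genes, and 33 of 38 members had a negative difference, beside 3293 of 6782 genes. In either direction, the 8 calls became 13 with no filter on low values and 17 with a trended, robust prior. Each of these counts held 1 rise. The 8 calls became 14 with centred arrays and 2 with all 24 arrays in the fit. COX6A1 and UQCR10 were the only members that changed by at least 2-fold in total RNA in any of these comparisons, both after miR-203, where 2.4% of all genes were called at least 2-fold lower. Leaving out single arrays gave 4 to 8 calls after miR-130a, 5 to 8 after miR-203 and 1 to 2 after miR-205. Each omission also leaves fewer arrays in the fit. Whether the array left out or the smaller number of arrays changed the count was not tested. The count fell by more than 1.5 times without any 1 of the total miR-130a replicates or replicate 3 of total scramble (4 or 5 calls after miR-130a). The same held without replicate 1 of total miR-203 or replicate 3 of total scramble (5 after miR-203), and without any 1 of the total miR-205 or total scramble replicates (1 or 2 after miR-205).

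The AGO2-bound change was then set against the total RNA change of the same gene in 1 model. It was higher than the total RNA change for 13 members and lower for 4 after miR-130a, where 16.2% of all genes were called higher, 18.4% lower and 34.5% in either direction. The counts were 11 and 9 after miR-203 (all genes 22.1%, 27% and 49.1%) and 14 and 12 after miR-205 (21.1%, 21.7% and 42.8%). Among the 1899 brighter genes, 385, 465 and 446 were higher and 413, 633 and 561 lower for miR-130a, miR-203 and miR-205. COX6A1 had the largest such difference of any member after miR-203, 4.24 (SE 0.20, limma adjusted p = 7.1e-14), with 1.16 after miR-130a and -1.39 after miR-205.

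Other probe sets were at hand for 15 members and gave the same direction of AGO2-bound against total RNA for most. Among probe sets of members called, 20 of 21 ran the same way after miR-130a, 18 of 23 after miR-203, 19 of 23 after miR-205 and 20 of 22 after scramble. Those with a mean log2 level of at least 7 ran the same way for 13 of 13, 13 of 14, 13 of 14 and 12 of 12. Members not called in a transfection are not in its counts. SDHA, UQCR10, UQCRC1, UQCRQ, COX6A1, COX7A2, ATP5F1E, ATP5IF1, ATP5MC1 and ATP5PB, called in opposite directions, each rest on 1 probe set. UQCRC2 and ATP5MJ, also called in opposite directions, each had a second probe set of the other sign. For UQCRC2 it gave -0.07 beside 0.35 after miR-205, and for ATP5MJ 0.15 beside -0.60 after miR-203. With the mean over probe sets neither gene was called in opposite directions.

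The promoters of the members were compared as sequence, since nuclear respiratory genes are known to be controlled by NRF1 and by ETS factors such as GABP. Promoters of 250 bases before the start (RefSeq, GRCh38.p14) were listed for 31 of the 40 members, 37 promoters in all, and a gene counted when any of its promoters held the letters. The NRF1 core TGCGCA, searched on both strands, was found for 7 of these 31 genes (22.6%), for 15.0% of 5717 genes tested and for 8.28% of all 27305 genes. Per promoter it was in 18.9% of the members' 37, in 10.8% of 8438 of genes tested and in 6.89% of all 35116. The ETS core CCGGAAG, also on both strands, was found for 10 of 31 genes (32.3%), for 21.0% of genes tested and for 10.2% of all genes. Per promoter the shares were 29.7%, 15.3% and 8.52%. A match describes letters and does not show binding. Printed as examples of matches are the promoters of SDHA (chr5:218070-218319, plus strand), with 4 NRF1 matches, and of COX6A1 (chr12:120437863-120438112, plus strand), with 1 match of each core. Both genes were called in opposite directions in different transfections. Of the other members so called, UQCRC1 and UQCRQ also held a match. UQCR10, UQCRC2, COX7A2, ATP5F1E, ATP5IF1, ATP5MC1, ATP5MJ and ATP5PB held neither core. Whether matches go with direction was not tested. Capitals mark the matches on either strand.
SDHA: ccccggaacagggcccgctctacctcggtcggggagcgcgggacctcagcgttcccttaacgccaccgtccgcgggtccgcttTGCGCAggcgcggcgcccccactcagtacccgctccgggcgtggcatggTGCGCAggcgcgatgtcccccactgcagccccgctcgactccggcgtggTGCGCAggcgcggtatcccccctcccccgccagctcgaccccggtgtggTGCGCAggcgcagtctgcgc
COX6A1: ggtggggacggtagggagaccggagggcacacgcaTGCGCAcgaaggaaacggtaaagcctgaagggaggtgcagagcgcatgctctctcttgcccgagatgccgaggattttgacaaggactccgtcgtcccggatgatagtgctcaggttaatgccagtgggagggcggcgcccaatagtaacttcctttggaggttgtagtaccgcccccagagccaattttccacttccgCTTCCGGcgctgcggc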

How the data were processed

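Per probe set, the authors deposited a log2 expression value that was already normalized. R 2.9.0, GCRMA and RMA are named in the submitters' processing notes, without role or order. The arrays were Affymetrix oligonucleotide arrays, per the labels, and 3 arrays a group limit the precision. Of 22277 probe sets, 19064 had 1 symbol, 1043 several, 2108 were unnamed here and 62 were controls; 19052 matched the reference gene table, with 0 symbols changed. Where a gene had several probe sets, the brightest by mean over the 24 arrays stood for it, and genes with a mean under 2.85, the median over probe sets, were left out. Values within 0.05 of an array's lowest value count as at the floor.

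Linear models were fitted with limma 3.58.1 (lmFit, eBayes; R 4.3.3), and p-values were adjusted over all 6782 genes. AGO2-bound and total RNA arrays were fitted apart for each microRNA against scramble, and together for the difference of changes and for AGO2-bound against total RNA. The fitting code was tested on simulated data with known changes. Named members were COX6A1, those called in the same or in opposite directions in all transfections, and in each comparison up to 6 members each way with the largest called differences whose groups did not overlap (up to 4 for the difference of changes). For other lists up to 2 each way by the smallest p were taken; not every one is printed. The members, the lists of complex I genes, assembly factors, carriers, regulators and markers, and the tests were chosen with earlier results of these data known.

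The labels number replicates 1 to 3. In AGO2-bound RNA, deviations of same-numbered arrays from their group means correlated between miR-130a and scramble (0.107 to 0.516) and between miR-203 and scramble (0.162 to 0.577). The numbers thus pair those arrays, a property seen in the data rather than stated. Between AGO2-bound miR-205 and scramble the correlations were 0.517 and 0.315 for replicates 1 and 3, but -0.045 for replicate 2. Pairing is thus partial there. The numbers did not pair total RNA groups, or AGO2-bound with total RNA. In every AGO2-bound group the mean of the spiked control probe sets rose with replicate number. The reported fits left the replicate number out. Alternatives tried were another filter, the mean over probe sets, other scaling, another spread prior, the block, other arrays in the fit, and the omission of each array.
The NRF1 core used for promoters replaced a longer form of the motif after counts for the longer form had been seen.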

Additional observations from a re-analysis of the deposited data

Results flagged for a closer look

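The members below changed differently in AGO2-bound and in total RNA, by the limma test of the difference itself; values are the AGO2-bound change minus the total RNA change against scramble, on the log2 scale, with 3 arrays in each of 4 groups. The 3 microRNAs share the scramble arrays.

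After miR-130a the difference was positive for ATP5F1E (3.26), COX7B (2.09), SDHA (1.89), ATP5MJ (1.16) and COX6A1 (1.16). It was negative for ATP5MC1 (-3.58), the pseudogene ATP5MC2P1 (-1.01), ATP5MC2 (-0.71) and UQCRC2 (-0.53). The value for UQCRC2 lost its call without replicate 3 of AGO2-bound scramble (-0.45).

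After miR-203 COX6A1 (4.24), UQCR10 (3.21), COX7A2 (2.91) and CYC1 (1.37) had positive differences. Those of ATP5MC1 (-2.74), SDHC (-1.31), ATP5F1E (-1.25) and ATP5MC2P1 (-1.01) were negative. ATP5F1E thus had a positive value after miR-130a and a negative one after miR-203.

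After miR-205 ATP5F1D (3.52), UQCRQ (2.58), UQCRC1 (2.09) and ATP5IF1 (1.97) stood on the positive side, and ATP5MC1 (-3.46), COX6A1 (-1.39), SDHD (-1.13) and UQCR10 (-1.01) on the negative side. COX6A1 and UQCR10 were positive after miR-203 and negative after miR-205.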

How the results depend on the processing

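No difference called for a tested member changed sign under any alternative run, whereas some that were not called did: with the mean over all probe sets, AGO2-bound against total RNA gave 0.43 (limma adjusted p = 0.0090) for ATP5MJ after miR-205, beside -0.18, and -0.20 (adjusted p = 0.20) for SDHC after scramble, beside 0.24. The total counts of members called, both directions together, for AGO2-bound against total RNA, for AGO2-bound RNA against scramble and for the difference of changes stayed within 1.5 times of the reported ones in each alternative. By direction there were 2 exceptions: the 9 lower in AGO2-bound RNA after miR-130a were 4 without replicate 2 of AGO2-bound miR-130a, and the 8 higher in AGO2-bound than total RNA after scramble were 5 with quantile normalization. Leaving out 1 array at a time gave 33 to 35 members for AGO2-bound against total RNA after miR-130a, 33 after miR-203, and 34 to 35 each after miR-205 and scramble. Against scramble, AGO2-bound RNA gave 15 to 21 (miR-130a), 19 to 23 (miR-203) and 20 to 24 (miR-205), and the difference of changes gave 16 to 20, 18 to 21 and 22 to 26. The small counts in total RNA moved. After miR-130a the 8 members became 13 with no filter on low values, 14 with arrays centred on their medians, 17 with a trended, robust prior and 2 with all 24 arrays in the fit, and 4 to 8 without single arrays. After miR-203 the 8 became 14 with the mean over all probe sets, 4 with all 24 arrays, 5 with the compared groups alone, and 5 to 8 without single arrays. After miR-205 the 4 became 1 with all 24 arrays, 1 with the compared groups alone, and 1 to 2 without single arrays. The causes were not tested. With the replicate number as a block, the counts for AGO2-bound RNA against scramble were 22, 26 and 30 (miR-130a, miR-203, miR-205); the block ended the calls of ATP5MC1 in total RNA after miR-203 (limma adjusted p = 0.0504) and of ATP5F1A in total RNA after miR-205 (0.058) and changed no other named call. The total RNA calls of UQCRC1, ATP5IF1, SDHD, ATP5F1A, ATP5MC1, UQCRC2, COX7A2L, ATP5F1D, COX8A, COX5B and COX7B each ended under at least 1 alternative. The call of the difference of changes for UQCRC2 after miR-130a ended with the mean over all probe sets (-0.38, limma adjusted p = 0.084). It also ended without replicate 3 of AGO2-bound scramble (-0.45, limma adjusted p = 0.055). AGO2-bound UQCRC1 after miR-203 lost its call with no filter (limma adjusted p = 0.099).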
